A study of Mus musculus with 27 samples.

Results

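The comparison described here is that of mouse hair follicle stem cell cultures labelled Rxra cKO with wild-type cultures, both grown in the serum-free medium called atRA+PKCi. Its members are 4 of the 8 RNA-seq libraries in the counts table and of 27 samples in the series, chosen by their labels, with 2 of labelled Rxra cKO atRA+PKCi and 2 of wild-type atRA+PKCi. The cells came from back skin in telogen, the resting phase of the hair cycle, at postnatal day 55, were sorted, were expanded as lines on feeder cells and were then moved into 3D droplets. atRA+PKCi medium holds all-trans retinoic acid (atRA) together with Go6976, an inhibitor of protein kinase C (PKC), and it lacks the fetal bovine serum (FBS) of the other medium, in which the remaining 4 libraries of the same mice were grown. The cKO mice carried Rxra fl/fl alleles, a tamoxifen-inducible Cre recombinase driven by Sox9 (Sox9-CreER) and an R26-YFP reporter that marks recombined cells. Those 3 alleles were held on a C57BL/6 background, and the methods list CD1/ICR as well as C57BL/6J wild-type animals and state matching by age and sex, with littermates where possible. Which of these strains gave the wild-type lines, and whether they carried Cre or YFP, was not given in the sources used here, so that genotype, strain and cell line cannot be told apart. Each library of a genotype came from a separate mouse, and each line from 1 mouse.

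Retinoid X receptor alpha, the product of Rxra, is a nuclear receptor that binds DNA mostly paired with another receptor. With a retinoic acid receptor (RAR) as its partner it switches genes on when atRA is bound, and with other partners it serves vitamin D, thyroid hormone, fatty acid and oxysterol signalling. In skin, retinoids are known to restrain cornification of keratinocytes, and hair follicle stem cells are the resident cells that renew the follicle and can also repair the epidermis after a wound. PKC activity is known to promote keratinocyte differentiation.

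The 4 libraries held between 25150300 and 35879800 estimated counts each. Replicate libraries correlated with r of 0.992 in the wild-type and 0.996 in the labelled cKO cultures, over log2 levels of all genes tested. Levels are given below as CPM, counts relative to library size after TMM scaling, in library 1 and then library 2 of a group, and a log2 fold change is labelled Rxra cKO over wild-type with its standard error (SE). With 2 mice a group, p-values rest on a spread shared across genes and across all 8 libraries. The targeted gene did not mark the genotypes here, since Rxra stood at 147 and 143 CPM in the wild-type and 148 and 145 CPM in the labelled cKO libraries (log2 fold change 0.01 ± 0.09, adjusted p = 0.927). A gene-level count sums all transcripts of the gene and does not single out the exons that Cre removes, so it does not check the label, and these libraries are called labelled cKO throughout. In FBS the same gene stood at 149 and 122 CPM in the wild-type and 97.2 and 95.7 CPM in the labelled cKO libraries. Keratinocyte markers, mostly Krt5 and Krt14, were abundant, with summed levels of 16600 to 16700 CPM in the wild-type and 25100 CPM in both labelled cKO libraries. Of these 7 markers, 2 were higher and 3 lower in the labelled cKO libraries, so the sum does not speak for each of them. Stem cell markers, mostly Krt15, summed to 4590 to 4750 CPM in the wild-type and 341 to 345 CPM in the labelled cKO libraries. Of these 5 markers, 4 were tested, with Sox9 and Krt15 lower and Nfatc1 higher, so this sum mainly follows Krt15. By contrast, the summed markers of fibroblasts (5.44 to 11 CPM), endothelium (1.49 to 2.20 CPM), immune cells (8.00 to 11.7 CPM) and melanocytes (0.393 to 0.577 CPM) were low in both genotypes. Summed muscle markers were 1.2 to 1.6 CPM in the wild-type and 9.12 to 9.16 CPM in the labelled cKO libraries, and summed sebocyte markers 49.1 to 63.2 CPM over all 4. Of the defining markers, Lum (fibroblast), Cd3e (T cell), Dct and Tyr (melanocyte), Myh11 (smooth muscle) and Hbb-bs (erythroid) were at 0 counts in all 4 libraries. Of the stem cell markers, Sox9 and Krt15 were present but Lhx2 gave at most 3 counts and Lgr5 at most 5 counts in any of these libraries.

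RAR and RXR pairs classically bind 2 copies of a hexamer in direct repeat with 5 bases between them (DR5). Elements of this form, searched on both strands with AGGTCA as the hexamer and with G allowed for its opening A and T for the later of its G bases, were found in 32 of 32851 RefSeq promoter windows (GRCm38.p6, 250 bases before to 50 bases after the start site), which is 0.0974%. The elements of Rarb and Cyp26a1, the textbook retinoic acid targets, are shown because they lie close upstream of the start site, together with those of 3 genes that passed the genotype test. Capitals mark the 2 hexamers, and each line runs 5′ to 3′ on the strand of its gene, so that the elements of Cyp26a1, Gm14133 and Ppbp, which lie on the opposite strand, appear as reverse complements.
Rarb: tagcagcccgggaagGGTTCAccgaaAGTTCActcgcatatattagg
Cyp26a1: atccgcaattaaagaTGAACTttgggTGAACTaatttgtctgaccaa
Gm14133: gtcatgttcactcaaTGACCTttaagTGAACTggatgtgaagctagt
Ppbp: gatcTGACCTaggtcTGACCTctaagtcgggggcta
Prss27: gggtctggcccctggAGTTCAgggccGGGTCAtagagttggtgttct
They lie at chr14:16575498-16575544 (minus strand) for Rarb, chr19:37697761-37697807 (plus strand) for Cyp26a1, chr2:149798945-149798991 (minus strand) for Gm14133, chr5:90768268-90768303 (plus strand) for Ppbp and chr17:24038079-24038125 (plus strand) for Prss27, all upstream of the annotated start. Cyp26a1, the main retinoic acid hydroxylase of many embryonic tissues, gave 0 counts in all 8 libraries. Rarb, which encodes RAR beta, stood at 0.128 and 0.348 CPM in the wild-type and 0.812 and 0.41 CPM in the labelled cKO libraries and was not called (adjusted p = 0.0914). Among 10629 tested genes with a promoter window, 8 held a DR5. Of these, 2 were higher (Ppbp and Prss27), 4 were lower (Gm14133, Gm4631, Blvrb and Tnfsf13b) and 2 were not called. Ppbp, a platelet-type chemokine, went from 83.1 and 82 to 232 and 268 CPM, the serine protease gene Prss27 from 0.513 and 0.317 to 3.04 and 3.84 CPM, and the predicted gene Gm14133 from 3.21 and 2.22 to 0.183 and 0.224 CPM. As a share of the genes with a window, a DR5 was thus held by 0.0735% of higher genes, 0.170% of lower genes and 0.0360% of genes not called, and counts this small carry no comparison. The call of Blvrb was lost without labelled cKO library 2 or wild-type library 1 or 2 (-0.38 to -0.28, adjusted p from 0.063 to 0.131), and that of Tnfsf13b without labelled cKO library 1 or wild-type library 1 or 2 (-2.50 to -1.58, adjusted p from 0.0685 to 0.19). That of Gm14133 was lost with limma on the log2 normalised counts (adjusted p = 0.0512 with a pseudocount of 1).

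Across the transcriptome the genotypes differed widely. Of 15965 genes tested, 3670 (23.0%) were higher and 3225 (20.2%) lower in the labelled cKO libraries at an adjusted p under 0.05, and the median log2 fold change over all genes was 0.00. These 2 shares are the background for the counts of each gene list below. Of the called genes, 1663 were higher by more than 1 log2 unit and 904 were lower by more than 1. Above 3 log2 units there were 612 higher and 106 lower genes, which narrowed to 70 and 10 among the 8912 genes with a mean of at least 10 CPM. The 2 libraries of 1 genotype did not overlap those of the other in 76.5% of all genes tested, so that lack of overlap on its own says little in groups of 2. Without labelled cKO library 1 or 2, the lower genes numbered 2006 or 1970 and the higher genes 2818 or 2850.

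**Figure D1:**
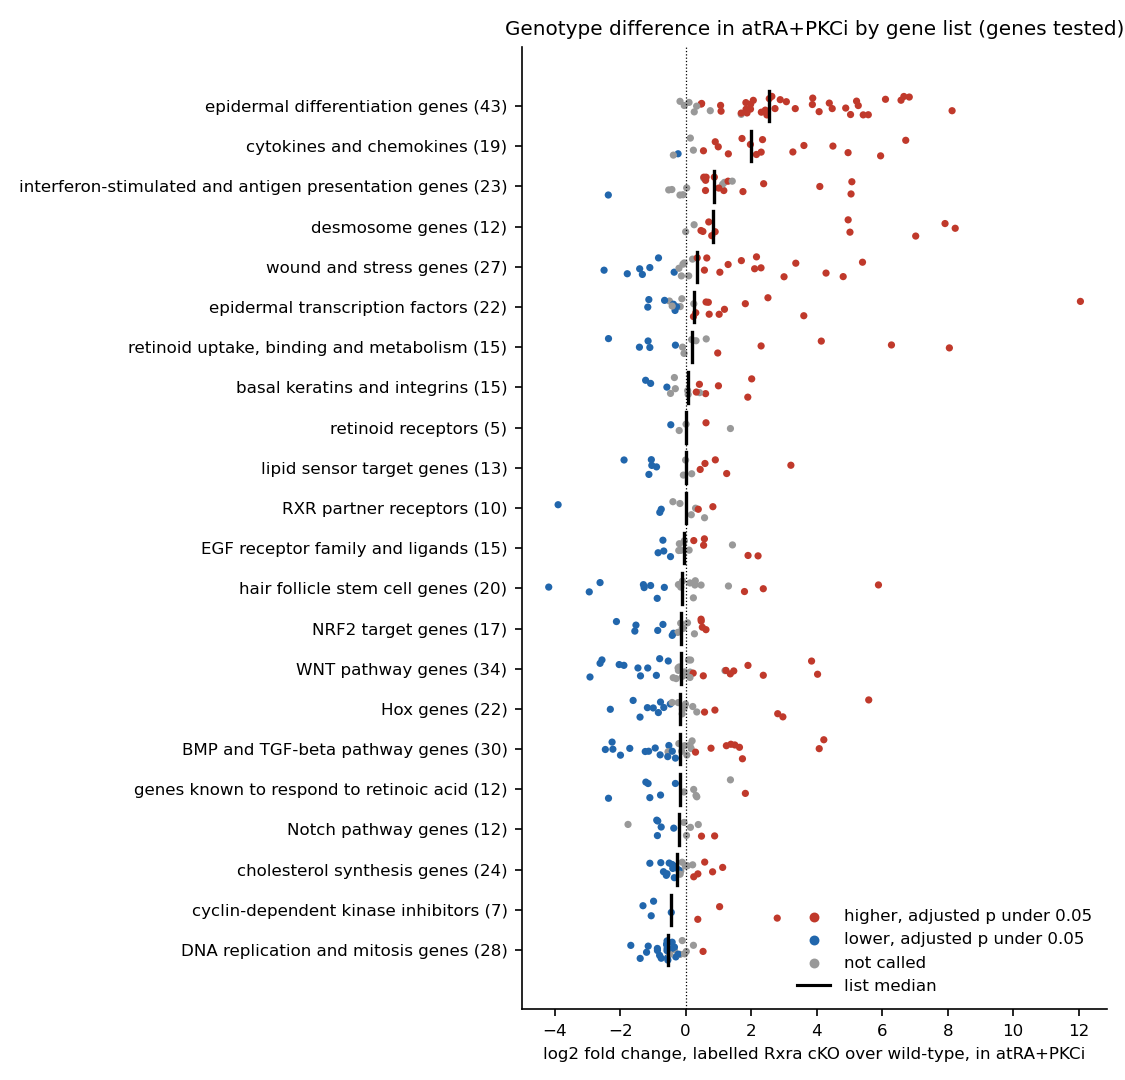
Log2 fold change (x axis, labelled Rxra cKO over wild-type in atRA+PKCi) of each tested gene in 22 gene lists, 1 list a row with its number of tested genes in brackets. Points are genes, red where higher and blue where lower at an adjusted p under 0.05 and grey where not called, and the black bar is the list median, which runs from -0.55 for DNA replication and mitosis genes to 2.55 for epidermal differentiation genes.

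Retinoid receptor genes shifted little. Per kilobase of exon, Rxra and Rarg were the most abundant of the family in the wild-type cultures (26.6 and 27.7 CPM per kb), ahead of Rxrb (13) and Rara (2.35). Rara rose from 10.7 and 9.82 CPM to 15.8 and 15.8 CPM (log2 fold change 0.62 ± 0.14, adjusted p = 0.00672). Rarg, the main RAR of keratinocytes, fell from 119.9 and 116 CPM to 84.9 and 87.5 CPM (-0.45 ± 0.10, adjusted p = 0.0068), a call that was lost without labelled cKO library 1 (-0.41, adjusted p = 0.0582). Rxrb, at 51.8 and 51.3 CPM against 46.1 and 43.7 CPM, was not called (adjusted p = 0.0654), but it was called lower with only the 4 atRA+PKCi libraries (adjusted p = 0.0175) and without either wild-type FBS library (adjusted p = 0.0278 and 0.0279). Rxrg had too few counts to test.

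Genes that make, carry and destroy retinoids moved in both directions, with 5 higher, 5 lower and 5 not called among 15 tested of 20 listed (33.3% each way, median log2 fold change 0.18). The higher ones include dehydrogenases that make retinaldehyde and retinoic acid. Aldh1a3, which oxidises retinaldehyde to retinoic acid, stood at 0.641 and 0.38 CPM in the wild-type and 41.8 and 38.3 CPM in the labelled cKO libraries (6.28 ± 0.23, adjusted p = 2.96e-07). Rdh10, a retinol dehydrogenase, went from 9.43 and 9.09 to 18.1 and 18.4 CPM. Rdh12, of the same dehydrogenase family, had 3 and 0 counts in the wild-type libraries against 14.1 and 13.4 CPM in the labelled cKO libraries. Dhrs9 (from 0.0641 and 0.095 to 1.49 and 1.45 CPM) and the binding protein gene Crabp1 (from 0.257 and 0.127 to 1.02 and 0.894 CPM) were also higher but stayed low. So both labelled cKO libraries were above both wild-type libraries for each of these genes, by about 1 log2 unit for Rdh10 and by over 6 for Aldh1a3. In FBS, Rdh12 (log2 fold change 4.42), Aldh1a3 (2.40), Dhrs9 (1.76) and Rdh10 (0.61) were higher in the labelled cKO libraries too, and Crabp1 was not called.

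The lower genes were led by Cyp26b1 and Dhrs3, both known to be induced by retinoic acid and to limit its supply. Cyp26b1, which hydroxylates retinoic acid, fell from 72.5 and 69.5 CPM to 14.7 and 13 CPM (-2.36 ± 0.13, adjusted p = 2.54e-06). Dhrs3, which reduces retinaldehyde back to retinol, fell from 191 and 183 to 83.8 and 84.9 CPM (-1.15 ± 0.08, adjusted p = 1.06e-05). Both transcripts were thus lower by over 1 log2 unit, without overlap. Stra6, the retinol uptake receptor gene, was lower by a small margin (297 and 253 against 225 and 218 CPM, -0.31 ± 0.09, adjusted p = 0.0184), and this call was lost without labelled cKO library 1 or 2 or wild-type library 1 (-0.31 to -0.16, adjusted p from 0.0938 to 0.197). Aldh1a1 was low and lower still (1.19 and 1.11 against 0.445 and 0.41 CPM), and its call was lost without labelled cKO library 1 or 2 or wild-type library 1 or 2 (-1.45 to -1.33, adjusted p from 0.0714 to 0.125). The retinoic acid shuttle gene Crabp2, at 57 and 57.2 against 56.8 and 53.5 CPM, was not called. Without any 1 of labelled cKO library 1 or 2 or wild-type library 1, the count of lower genes in this list was 3.

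Among the 16 listed genes known to respond to retinoic acid, 12 could be tested, of which 6 were lower (50%), 1 was higher (8.33%) and 5 were not called, with a median log2 fold change of -0.18 against 0.00 over all genes. The list shares Cyp26b1, Dhrs3 and Stra6 with the one above. Also lower were Nrip1, a nuclear receptor corepressor, which fell from 362 and 385 to 164 and 158 CPM (-1.22 ± 0.08, adjusted p = 6.17e-06), and Tgm2, tissue transglutaminase, which fell from 100.2 and 88.4 to 57.4 and 53.4 CPM (-0.77 ± 0.08). The higher gene, Rarres1, stayed below 0.30 CPM in every one of the 4 libraries, and its call was lost without labelled cKO library 1 or 2 or wild-type library 1 or 2 (1.58 to 2.16, adjusted p from 0.0739 to 0.146). In FBS, where no retinoic acid was added, 6 of the 12 were higher in the labelled cKO libraries and 2 were lower. Dhrs3 was among the higher (log2 fold change 0.80), whereas Cyp26b1 (-0.66) and Nrip1 (-0.23) were lower there as well. The genotype difference differed between the media for 9 of the 12.

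**Figure D2:**
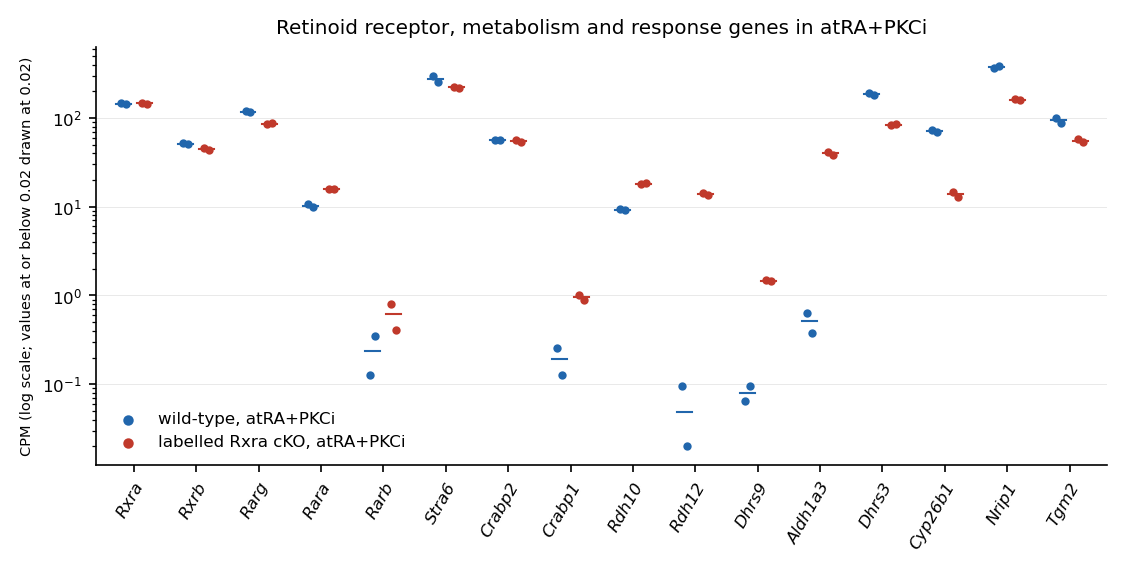
Levels of 16 retinoid genes in atRA+PKCi (y axis, CPM on a log scale), with a point for each library and a bar for the mean of each genotype, wild-type in blue and labelled Rxra cKO in red. The genotypes coincide for Rxra and Crabp2, whereas Aldh1a3, Rdh12 and Dhrs9 are far higher and Cyp26b1, Dhrs3 and Nrip1 lower in the labelled cKO libraries.

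Partners of RXR other than RAR showed no common direction. Of 10 tested, 2 were higher (Nr4a1 and Thra), 3 lower (Pparg, Thrb and Nr4a2) and 5 not called. That is 20.0% higher and 30.0% lower, against 23.0% and 20.2% of all genes. Pparg, the fatty acid sensor of sebaceous cells and fat, fell from 5.0 and 3.01 CPM to 0.209 and 0.335 CPM (-3.89 ± 0.41, adjusted p = 9.6e-05), and the orphan receptor gene Nr4a1 rose from 12.2 and 13.3 to 23.4 and 22 CPM. The call of Thra was lost without labelled cKO library 2 or wild-type library 1 (0.32 to 0.40, adjusted p from 0.0501 to 0.0869), that of Thrb without labelled cKO library 1 or 2 or wild-type library 1 or 2 (-0.82 to -0.62, adjusted p from 0.0745 to 0.187) and that of Nr4a2 without labelled cKO FBS library 1 or 2, labelled cKO library 1 or 2 or wild-type library 1 or 2 (-0.91 to -0.62, adjusted p from 0.0508 to 0.18). The higher partners numbered 4 without either wild-type FBS library.

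Target genes of the lipid-sensing receptors split, with 5 higher and 5 lower of 13 tested (38.5% each way, median 0.00). The lower 5 are known targets of the oxysterol receptors LXR or genes of fatty acid desaturation. The cholesterol exporter gene Abca1 fell from 24.4 and 24.5 CPM to 7.67 and 5.51 CPM (-1.88 ± 0.21, adjusted p = 0.000132), the LDL receptor ligase gene Mylip from 30.2 and 31.5 to 13.9 and 14.4 CPM (-1.12 ± 0.10) and Srebf1 from 71.3 and 65.5 to 36.2 and 37.7 CPM (-0.89 ± 0.10). The desaturase genes Scd1 (208 and 199.8 to 100 and 99.5 CPM) and Scd2 (799 and 737 to 377 and 366 CPM) fell by about 1 log2 unit each. The higher genes were led by the known PPAR targets Angptl4, a lipase inhibitor, at 1.83 and 1.46 against 14.8 and 15.7 CPM (3.21 ± 0.18), and Plin2, a lipid droplet coat gene, at 99.1 and 82.8 against 167 and 174 CPM. The count of higher genes was 3 without labelled cKO library 2. Abca1, Mylip, Srebf1, Scd1 and Scd2 were lower, and Angptl4 and Plin2 higher, in the labelled cKO libraries in FBS as well. Of 24 cholesterol synthesis genes, 13 were lower (54.2%) and 5 higher (median -0.25). Squalene epoxidase, Sqle, fell from 297 and 289.6 to 139 and 136 CPM (-1.09 ± 0.07) and Nsdhl by 0.76 on the log2 scale, whereas Hsd17b7 rose from 39.3 and 38.4 to 69.6 and 67.7 CPM. The lower cholesterol genes numbered 7 without labelled cKO library 1, without labelled cKO library 2 or without wild-type library 1, and the higher ones 3 without labelled cKO library 1.

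Genes that define hair follicle stem cells went both ways, with 8 lower (40.0%, against 20.2% of all genes), 3 higher (15.0%) and 9 not called among 20 tested of 23 listed (median -0.12). Krt15, the keratin used to mark the bulge, had the highest level of any keratin gene after Krt5 and Krt14 in the wild-type cultures, at 4576 and 4430 CPM, and fell to 251 and 245 CPM (-4.18 ± 0.12, adjusted p = 1.15e-07). Sox9, a transcription factor of the bulge and the driver of the Cre, fell from 173 and 156 to 88.4 and 92.1 CPM (-0.87 ± 0.11, adjusted p = 0.000315). Foxc1, known to keep bulge cells quiescent, fell from 54.1 and 48.9 to 21.3 and 20.8 CPM (-1.29 ± 0.09) and Foxp1 from 140.3 and 139 to 91 and 86.8 CPM (-0.65 ± 0.09). In each case both wild-type libraries lay above both labelled cKO libraries, but the step ranged from 0.65 log2 units for Foxp1 to 4.18 for Krt15. The follicle transcription factor gene Barx2 (103 and 92.4 to 41.8 and 39.5 CPM), the integrin gene Itga6 (643 and 665 to 319 and 304 CPM), the surface marker gene Cd200 (3.43 and 4.18 to 0.498 and 0.484 CPM) and the WNT inhibitor gene Sfrp1 (21.4 and 19.3 to 3.33 and 3.31 CPM) made up the rest of the lower genes. The 3 higher genes were Nfatc1, a quiescence factor, at 0.834 and 1.49 against 5.19 and 2.83 CPM (1.80 ± 0.37), the matrix gene Postn at 0.192 and 0.19 against 12.2 and 10.9 CPM (5.89 ± 0.22) and Dkk3 at 3.79 and 2.76 against 15.5 and 18.4 CPM (2.37 ± 0.15). The higher genes numbered 5 without wild-type library 1 and also with the replicate number as a block.

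**Figure D3:**
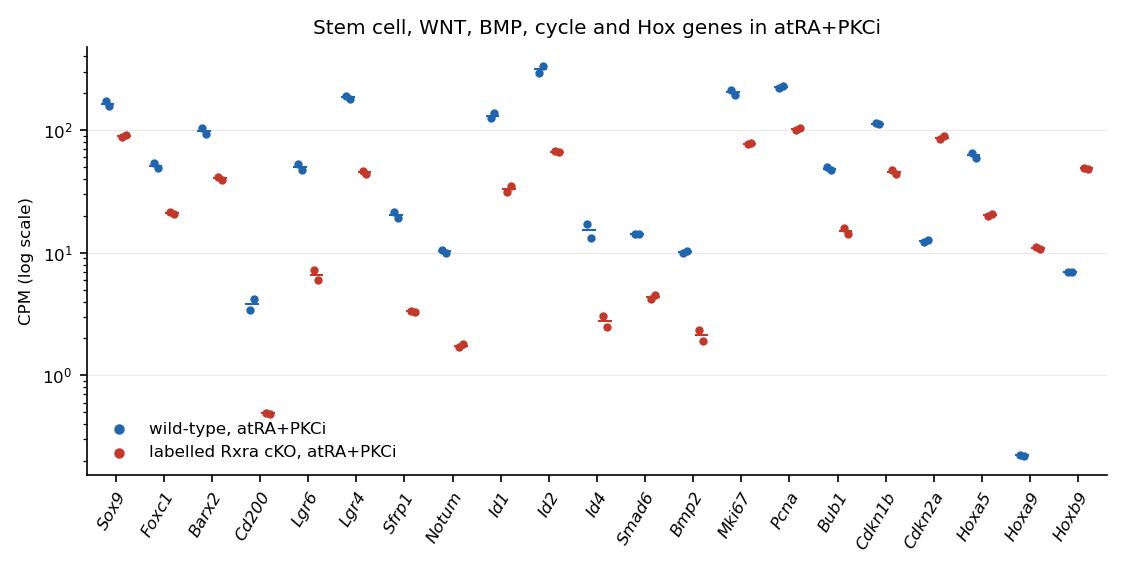
Levels of 21 stem cell, WNT, BMP, cell cycle and Hox genes in atRA+PKCi (y axis, CPM on a log scale), with a point for each library and a bar for the mean of each genotype, wild-type in blue and labelled Rxra cKO in red. Only Cdkn2a, Hoxa9 and Hoxb9 among those drawn are higher in the labelled cKO libraries.

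Both basal keratins rose. Krt5 went from 9262 and 9149 CPM to 12310 and 12320 CPM (0.42 ± 0.08) and its partner Krt14 from 5718 and 5972 to 11730 and 11670 CPM (1.00 ± 0.10, adjusted p = 6.19e-05). The collagen receptor gene Itga2, known to rise in migrating keratinocytes, went from 5.26 and 4.4 to 18.9 and 20.3 CPM (2.02 ± 0.10). Of the 15 basal keratin, laminin and integrin genes, 6 were higher (40.0%, against 23.0% of all genes) and 3 lower (20.0%, against 20.2%). With only the 4 atRA+PKCi libraries, 6 were lower.

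Epidermal differentiation genes were higher as a group. Of 44 listed, 43 were tested, 36 were higher (83.7%, against 23.0% of all genes) and 7 were not called, and the median log2 fold change was 2.55. The keratin pair of the first suprabasal cells both rose, Krt1 from 0.609 and 0.0634 CPM to 43.4 and 33.5 CPM (6.83 ± 0.40, adjusted p = 3.26e-06) and Krt10 from 6.09 and 6.53 to 29.8 and 22.9 CPM (2.06 ± 0.15, adjusted p = 1.08e-05). Krtdap, a secreted differentiation factor, rose from 0.802 and 0.982 to 88.5 and 82.4 CPM (6.58 ± 0.27). The later barrier genes were higher too, with the corneodesmosome gene Cdsn at 1.12 and 0.855 against 29.8 and 28.9 CPM (4.89 ± 0.21) and the filaggrin protease gene Asprv1 at 4.46 and 3.39 against 85.3 and 78.6 CPM (4.38 ± 0.14). Among cornified envelope genes, Sprr2d rose from 2.34 and 2.63 to 96.2 and 89 CPM (5.22 ± 0.20) and Cnfn from 0.321 and 0 to 11.5 and 10.9 CPM (6.10 ± 0.46). Lgals7, a keratinocyte galectin, rose from 5.9 and 5.61 to 277 and 272 CPM (5.58 ± 0.16).

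Genes of the last steps were called but low. The granular layer genes Lor (0.706 and 0.792 to 4.64 and 4.69 CPM, 2.63 ± 0.23) and Flg (0.289 and 0.127 to 8.01 and 8.31 CPM, 5.27 ± 0.51) remained below 10 CPM. Lce1a1 and Klk5 had 0 counts in both wild-type libraries, so that their difference is at least 24.1-fold and at least 8.68-fold, against a floor of 3 counts over the wild-type libraries. The list median was 2.55 also with these 2 genes at their bounds. The desquamation protease gene Klk7 (0.674 and 0.792 to 11.9 and 13 CPM, 4.08 ± 0.26), the filaggrin-processing Casp14 (2.05 and 1.93 to 16.7 and 17 CPM, 3.07 ± 0.17) and the crosslinking enzyme gene Tgm1 (3.59 and 2.41 to 9.53 and 9.95 CPM, 1.70 ± 0.23) also rose. Involucrin, Ivl, an early envelope protein, was already at 204 and 215 CPM in the wild-type and stood at 197 and 209.5 CPM in the labelled cKO libraries (-0.04 ± 0.12, adjusted p = 0.797). The Sprr, Lce and Krt6 families hold near-identical copies, among which the split of reads is uncertain.

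Many of these genes lie in clusters. In the epidermal differentiation complex, from S100a1 to S100a10 on chromosome 3 (bases 90511034 to 93564643), 48 of 76 tested genes were higher (63.2%), 11 were lower and 17 were not called, with a median log2 fold change of 2.46. The lower ones were 6 S100 genes and 5 predicted genes. In the type II keratin cluster from Krt80 to Krt18 on chromosome 15 (bases 101347444 to 102032027), 12 of 21 were higher (57.1%) and 9 were not called. In the type I cluster from Krt10 to Krt17 on chromosome 11 (bases 99385254 to 100261029), 7 of 15 were higher and 5 lower, Krt13 and Krt15 among the latter. In the desmosomal cadherin cluster from Dsc3 to Dsg2 on chromosome 18 (bases 19960930 to 20604521), 7 of 9 were higher (77.8%) and 2 not called. The outer genes of these windows were chosen after values of some of their genes were known.

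Desmosomes rivet keratinocytes together, and 10 of their 12 genes were higher (83.3%) and 2 were not called (median 0.85). The 5 genes with the largest log2 fold changes were all cadherins. Dsg1a, of the differentiating layers, rose from 0.321 and 0.412 CPM to 52.6 and 43.6 CPM (7.02 ± 0.29, adjusted p = 5.28e-07), Dsg1b from 1.64 and 1.62 to 54.9 and 46.5 CPM (4.96 ± 0.16) and Dsc1 from 0.289 and 0.0317 to 5.81 and 4.66 CPM (5.02 ± 0.42). Dsg2 had 0 and 4 counts and Dsc2 2 and 4 counts in the wild-type libraries, whereas the labelled cKO libraries held 20.4 and 20.4 CPM of Dsg2 and 24.7 and 23.6 CPM of Dsc2. The basal cadherin Dsg3 stood at 571 and 549.8 against 571 and 551 CPM (0.00 ± 0.10) and the plaque gene Pkp3 at 145 and 132 against 164 and 168 CPM, neither of them called. Pkp3 was called higher with DESeq2 (adjusted p = 0.017), with no filter on low counts, with only the 4 atRA+PKCi libraries and in 4 of the fits that left out 1 library, which makes 11 of the 12. Dsc3 rose by 0.80, the plaque gene Dsp by 0.90 (886 and 904 to 1715 and 1625 CPM) and Pkp1 by 0.53 on the log2 scale. For Krtdap, Lor, Flg, Cdsn, Asprv1 and Dsg1b the labelled cKO level in atRA+PKCi remained below that of either genotype in FBS, as the plot of both media shows, whereas for Krt1 it lay above both.

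**Figure D4:**
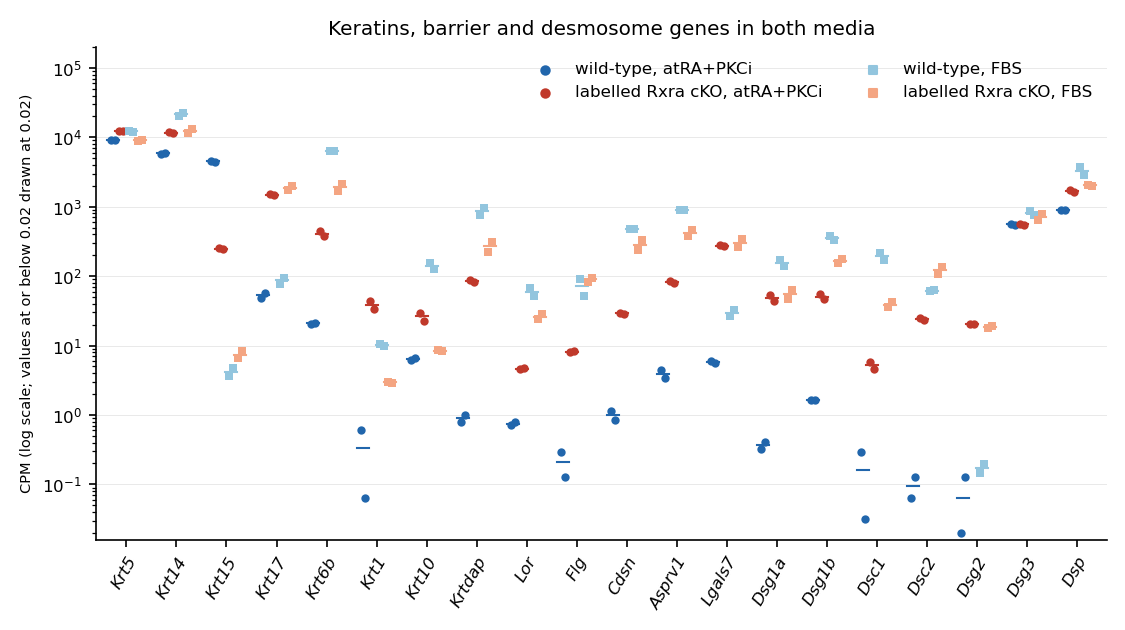
Levels of 20 keratin, barrier and desmosome genes in both media (y axis, CPM on a log scale), with a point for each library and a bar for each group mean, circles for atRA+PKCi and squares for FBS. In atRA+PKCi the labelled cKO libraries (red) lie above the wild-type libraries (blue) for Krt1, Krtdap, Cdsn, Asprv1, Dsg1a and Dsg1b, whereas in FBS the labelled cKO libraries (orange) lie below the wild-type (light blue) for the same 6 genes.

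Transcription factors of the epidermis did not move as 1 block, with 11 higher (50%), 6 lower (27.3%) and 5 not called of 22. Higher were Hopx (2.18 and 2.34 to 29.7 and 25.4 CPM, 3.61 ± 0.17), Prdm1, also called Blimp1 (1.7 and 1.68 to 10.2 and 9.09 CPM, 2.51 ± 0.23), Grhl1 (12 and 13.9 to 49.7 and 41.7 CPM, 1.82 ± 0.12), Zfp750 (54.3 and 48.9 to 125 and 109 CPM, 1.18 ± 0.12) and Grhl3 (10.2 and 9.47 to 20 and 20 CPM, 1.02 ± 0.11), all known to act in terminal differentiation. Tfap2b had 0 counts in both wild-type libraries and 16.3 and 19.1 CPM in the labelled cKO libraries, which is at least 366.0-fold higher against the same floor. Lower were the differentiation factors Ehf (163 and 164 to 79.2 and 71 CPM, -1.12 ± 0.09), Elf3 (51.7 and 45.5 to 21.4 and 22.2 CPM, -1.16 ± 0.09) and Maf (131 and 129 to 83 and 83.4 CPM, -0.64 ± 0.08). The lower factors numbered 3 without labelled cKO library 2.

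Wound and stress genes numbered 14 higher (51.9%) and 7 lower (25.9%) of 27, with wound keratins, proteases and alarmins among the higher and mostly AP-1 factors among the lower. The wound keratin Krt17 rose from 48.3 and 57.2 CPM to 1500 and 1460 CPM (4.81 ± 0.14, adjusted p = 1.15e-07), Krt6b from 20.4 and 21.3 to 439.6 and 375 CPM (4.29 ± 0.14), Krt16 from 119.5 and 139 to 621 and 538 CPM (2.16 ± 0.12) and Krt6a from 1966 and 1930 to 4123 and 3914 CPM (1.04 ± 0.08). Urokinase, Plau, rose from 70.7 and 61.6 to 215 and 215 CPM (1.70 ± 0.09), the alarmin gene S100a8 from 23.2 and 26.6 to 106 and 109 CPM (2.11 ± 0.18) and stromelysin, Mmp3, from 0.0641 and 0.158 to 4.82 and 4.95 CPM. The AP-1 subunit gene Fosb fell from 436 and 443 CPM to 82.9 and 73.3 CPM (-2.49 ± 0.16, adjusted p = 5.96e-06), Fos from 378 and 362 to 147 and 133 CPM (-1.40 ± 0.11), Jun from 484 and 459 to 241 and 201 CPM (-1.09 ± 0.14) and Jund by 0.83 on the log2 scale. The stress factor gene Atf3 (308 and 309 to 134 and 112 CPM, -1.32 ± 0.10) fell with them.

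Genes of DNA replication and mitosis were lower, with 20 of 28 lower (71.4%, against 20.2% of all genes), 1 higher (3.57%) and 7 not called, and a median of -0.55. Mki67, which marks cycling cells, fell from 213 and 193 CPM to 77.1 and 78.3 CPM (-1.39 ± 0.10, adjusted p = 1.16e-05). The spindle checkpoint kinase gene Bub1 fell from 49.6 and 47.5 to 16 and 14.3 CPM (-1.67 ± 0.08), the replication clamp gene Pcna from 219.5 and 230.3 to 99.5 and 104 CPM (-1.14 ± 0.10) and Top2a from 169 and 159.9 to 91.9 and 97.9 CPM (-0.80 ± 0.10). The exception was Ccne1, the G1 cyclin E1, which rose from 19 and 20 to 28.9 and 27.4 CPM (0.53 ± 0.08). The lower genes numbered 12 without labelled cKO library 1 and 13 without wild-type library 1, and the higher ones 2 without either labelled cKO FBS library. In bulk RNA, fewer cycling cells and less of each transcript per cell cannot be told apart. All 7 tested genes of cyclin-dependent kinase inhibitors were called. Cdkn2a, the Ink4a/Arf gene that accumulates in ageing cultures, rose from 12.3 and 12.7 to 84.5 and 89.1 CPM (2.80 ± 0.09, adjusted p = 1.8e-07), Cdkn2b from 43.4 and 41.2 to 84.6 and 89.1 CPM (1.04 ± 0.07) and Cdkn1a, which encodes p21, from 327 and 313 to 427 and 400.4 CPM (0.37 ± 0.07). Cdkn1b, which encodes p27, fell from 114 and 112 to 47.7 and 43.7 CPM (-1.30 ± 0.07) and Cdkn2d from 12.9 and 14.2 to 6.68 and 6.37 CPM (-1.05 ± 0.10). Cdkn1c and Cdkn2c fell as well, but the call of Cdkn1c was lost without labelled cKO library 1 or 2 or wild-type library 1 (-0.47 to -0.35, adjusted p from 0.0538 to 0.12) and that of Cdkn2c without labelled cKO library 2 (-0.83, adjusted p = 0.0501).

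BMP signalling holds bulge cells at rest, and its immediate targets of the Id family were lower. Id2 fell from 294 and 331 CPM to 67.7 and 66.2 CPM (-2.22 ± 0.10, adjusted p = 9.23e-07), Id1 from 125 and 138 to 31.4 and 34.9 CPM (-1.99 ± 0.08), Id4 from 17.3 and 13.2 to 3.04 and 2.5 CPM (-2.45 ± 0.32) and Id3 from 79 and 89.7 to 58.2 and 57.2 CPM (-0.55 ± 0.08). The inhibitory gene Smad6 (14.1 and 14.2 to 4.16 and 4.54 CPM, -1.71 ± 0.15) and the ligand gene Bmp2 (9.97 and 10.4 to 2.36 and 1.9 CPM, -2.25 ± 0.20) fell too. The receptor genes Bmpr1a (124 and 137 to 224 and 223 CPM, 0.77 ± 0.07) and Tgfbr2 (71.8 and 67.1 to 184 and 178 CPM, 1.38 ± 0.07) and the antagonist gene Fst (43.5 and 41.1 to 104 and 96.5 CPM, 1.24 ± 0.07) were higher, while Tgfb1 was lower (90.1 and 76.8 to 38.8 and 37.4 CPM, -1.13 ± 0.12). Of the 30 BMP and TGF-beta genes, 13 were lower (43.3%, against 20.2% of all genes) and 9 higher (30.0%, against 23.0%).

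Of 34 WNT genes tested, 11 were lower (32.4%, against 20.2% of all genes), 9 higher (26.5%, against 23.0% of all genes) and 14 not called. The R-spondin receptor genes Lgr6 (53 and 47.4 to 7.18 and 6.0 CPM, -2.92 ± 0.13, adjusted p = 6.57e-07) and Lgr4 (191 and 178 to 46.4 and 44.1 CPM, -2.03 ± 0.09) were lower, as were the receptor gene Fzd7 (115 and 109 to 43 and 42.8 CPM), the secreted WNT deacylase gene Notum (10.6 and 9.95 to 1.7 and 1.79 CPM, -2.56 ± 0.20) and the feedback ligase gene Znrf3 (21.6 and 23.2 to 12.4 and 11.7 CPM). Axin2, the usual readout of beta-catenin activity, was higher (5.45 and 5.45 to 15.8 and 14.3 CPM, 1.47 ± 0.14), with Wnt10b (0.353 and 0.158 to 4.35 and 4.1 CPM, 4.03 ± 0.35) and Fzd10 (0.577 and 0.887 to 10.4 and 10.8 CPM, 3.84 ± 0.22). Known targets of the pathway therefore went both ways, Axin2 upward and Notum and Znrf3 downward.

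Notch genes had 5 lower (41.7%, against 20.2% of all genes) and 2 higher (16.7%, against 23.0%) of 12 tested. Notch1 fell from 476 and 526 to 287 and 264 CPM (-0.86 ± 0.18), its ligand gene Jag2 from 123 and 125 to 68.2 and 69.2 CPM (-0.85 ± 0.10), the nuclear effector gene Rbpj from 58.4 and 56.8 to 29 and 33.6 CPM (-0.88 ± 0.11) and the glycosyltransferase gene Lfng by 0.75 on the log2 scale, whereas Notch2 rose from 19.5 and 20.4 to 38.2 and 35.4 CPM (0.88 ± 0.15). Of 15 genes of the EGF receptor family and its ligands, 5 were higher (33.3%, against 23.0% of all genes) and 4 lower (26.7%, against 20.2%). Egfr rose from 74.3 and 77.3 to 115 and 107 CPM (0.55 ± 0.07) and its skin ligand gene Epgn from 11.1 and 11.7 to 55.8 and 49.6 CPM (2.21 ± 0.10), while Erbb3 (-0.67 ± 0.14), Nrg1 (-0.69 ± 0.07) and the MAP kinase phosphatase gene Dusp6 (176 and 172 to 95.9 and 98.6 CPM, -0.84 ± 0.07) fell.

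Cytokine and chemokine genes were higher in 15 of 19 tested (78.9%), with 1 lower (5.26%), 3 not called and a median of 1.98. Ccl2, a monocyte attractant, rose from 0.385 and 0.285 CPM to 36.2 and 35.2 CPM (6.72 ± 0.34, adjusted p = 1.6e-06) and Ccl20 from 0.577 and 0.507 to 34.8 and 32.8 CPM (5.95 ± 0.21). Csf2, which encodes GM-CSF, rose from 0.449 and 0.253 to 11.5 and 10.6 CPM (4.96 ± 0.23), Tnf from 0.513 and 0.507 to 12.2 and 11 CPM (4.50 ± 0.17), Cxcl2 from 3.17 and 2.88 to 30.7 and 27.9 CPM (3.27 ± 0.10) and the epithelial alarmin genes Tslp from 0.802 and 0.475 to 7.65 and 8.05 CPM (3.61 ± 0.21) and Il33 from 15.8 and 16.2 to 67.6 and 57.9 CPM (1.98 ± 0.10). The lower gene was Cxcl1, whose small difference (-0.23 ± 0.07) was not called without labelled cKO FBS library 1, labelled cKO library 1 or 2 or wild-type library 2 (-0.21 to -0.14, adjusted p from 0.0541 to 0.281). Of the 5 immune markers, 2 could be tested and went opposite ways, Cd14 from 10.8 and 11.4 to 6.63 and 6.44 CPM and Cd74 from 0.192 and 0.222 to 1.75 and 1.56 CPM, while their sum was 11.1 to 11.7 CPM in the wild-type and 8.00 to 8.48 CPM in the labelled cKO libraries. The part of immune cells in the cytokine levels was not tested. Interferon-stimulated and antigen presentation genes were higher in 13 of 23 (56.5%), with H2-D1 at 47.4 and 46.7 against 93.9 and 95.6 CPM (1.01 ± 0.08), B2m at 74.6 and 75 against 133 and 141 CPM (0.88 ± 0.12) and H2-K1 at 43.3 and 43.4 against 67.8 and 65.9 CPM (0.62 ± 0.10). The antiviral gene Mx2 rose from 0.0321 and 0 to 0.576 and 0.782 CPM. Usp18, a brake on interferon signalling, was the 1 that was lower (6.06 and 7.22 to 1.31 and 1.27 CPM, -2.36 ± 0.34), with 2 lower without labelled cKO library 2. Class I genes such as H2-K1 and H2-D1 share reads with their relatives and differ between mouse strains, and the part of either in these values was not tested.

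Antioxidant genes driven by NRF2 were lower in 7 of 17 (41.2%, against 20.2% of all genes) and higher in 4 (23.5%, against 23.0%). Nqo1 fell from 72.8 and 75.3 to 18.2 and 15.9 CPM (-2.11 ± 0.08), Gclc, which limits glutathione synthesis, from 262 and 262 to 90.5 and 92.6 CPM (-1.52 ± 0.08) and Gsta4 from 341 and 337 to 115 and 117 CPM (-1.55 ± 0.09), whereas Tkt rose (0.62 ± 0.07). Of 7 PKC isoform genes tested, 2 were higher (28.6%, against 23.0% of all genes) and 5 not called. The higher ones were Prkcd (69.7 and 65.6 to 122 and 124 CPM, 0.86 ± 0.07) and Prkcz (0.54 ± 0.13), the latter not called without wild-type library 2 (0.42, adjusted p = 0.054), and 1 isoform was lower without either wild-type FBS library. Among Hox genes, which encode body position, 9 of 22 tested were lower (40.9%, against 20.2% of all genes) and 5 higher (22.7%, against 23.0%). Hoxa2 (12.7 and 11.8 to 2.83 and 2.09 CPM), Hoxa5 (64.9 and 59.7 to 20.1 and 20.9 CPM, -1.60 ± 0.08) and Hoxc5 (54.9 and 54.5 to 30.4 and 31 CPM) were among the lower, and Hoxa9 (0.225 and 0.222 to 11.1 and 10.8 CPM, 5.59 ± 0.33), Hoxb9 (6.99 and 6.91 to 49 and 48.6 CPM, 2.81 ± 0.08) and Hoxc9 (0.225 and 0.222 to 1.83 and 1.71 CPM) among the higher, these last 3 also in FBS.

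Among called genes with a mean of at least 10 CPM and no overlap, the 12 that were lowest in the labelled cKO libraries were Pitx1, Ngfr, Krt13, Krt15, Wfdc18, Hlf, Selenbp1, Trib2, Enpp1, Btn1a1, Lgr6 and Pgf. Pitx1, a homeobox gene of the hindlimb and of epithelia, fell from 109 and 96.9 CPM to 2.67 and 2.05 CPM (-5.42 ± 0.15, adjusted p = 1.15e-07) and was lower in FBS too (128 and 121 to 2.77 and 3.76 CPM). Ngfr, the low-affinity neurotrophin receptor gene, fell from 53.7 and 50.6 to 1.28 and 1.71 CPM (-5.14 ± 0.20) and Krt13, a keratin of non-cornifying epithelia that retinoids are known to induce, from 93 and 80.1 to 4.19 and 4.88 CPM (-4.26 ± 0.12). Neither reached 2 CPM in FBS in either genotype. The transcription factor gene Hlf (29.7 and 32 to 2.65 and 2.61 CPM, -3.55 ± 0.14), Selenbp1 (-3.37 ± 0.30), Trib2 (-3.35 ± 0.15), Enpp1 (45 and 46.1 to 5.63 and 5.18 CPM, -3.07 ± 0.10) and Pgf (-2.90 ± 0.24) were lower in both media. Wfdc18 (20.3 and 18.6 to 1.13 and 1.97 CPM) and Btn1a1 (39.5 and 38.4 to 5.08 and 4.84 CPM, -2.97 ± 0.11) completed the set.

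The 12 that were highest were Thtpa, Brinp3, Dsg2, Slc16a3, Dsc2, Bhlhb9, Dsg1a, Ctsc, Krt1, Ccl2, Tuba8 and Krtdap. Several of them were scarcely counted in the wild-type libraries, with 1 and 1 counts for Thtpa, 1 and 6 for Brinp3, 2 and 2 for the lactate exporter gene Slc16a3 and 4 and 3 for Bhlhb9, whereas the labelled cKO libraries held 23 and 24.1 CPM of Thtpa, 72.8 and 77.5 CPM of Brinp3, 20.7 and 19.4 CPM of Slc16a3 and 20.6 and 20.5 CPM of Bhlhb9. The same 4 genes were higher in the labelled cKO libraries in FBS, at 14.3 and 12.8 CPM for Thtpa, 92.5 and 92.1 CPM for Brinp3, 46.4 and 57.3 CPM for Slc16a3 and 15.5 and 15.1 CPM for Bhlhb9. Ctsc, the lysosomal cathepsin C gene, rose from 1.8 and 2.0 to 229 and 214 CPM (6.86 ± 0.11, adjusted p = 1.32e-08) and Tuba8 from 0.128 and 0.253 to 22.2 and 18.4 CPM (6.70 ± 0.29).

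Some genes were counted in 1 genotype alone. With at most 3 counts over the 4 libraries of 1 genotype and at least 1 CPM in each of the 4 of the other, 14 genes were of the labelled cKO cultures and 0 of the wild-type. They were Sdr39u1, Tfap2b, Cd59a, Cyp7b1, Trbc2, Cldn3, Cldn7, Fcmr, Gm44275, Armcx6, Arxes2, Zfp422, Fam19a5 and A630001G21Rik, at 1.10 to 19.1 CPM in the labelled cKO libraries in atRA+PKCi. Of those at 0 counts in both wild-type atRA+PKCi libraries, Sdr39u1 was at least 378.0-fold higher, the complement regulator gene Cd59a at least 153.0-fold, the oxysterol hydroxylase gene Cyp7b1 at least 97.4-fold and the tight junction gene Cldn7 at least 67.5-fold. The sources used here do not say which strain gave these wild-type cultures, and a difference in strain cannot be told apart from that in genotype for genes of this kind.

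The same genotype comparison in FBS shows which of these differences went with the medium. The 2 contrasts share no library but use cultures of the same mice. In FBS, 22.3% of all genes were higher and 20.5% lower in the labelled cKO libraries. Of the 3670 genes that were higher in atRA+PKCi, 1984 (54.1%) were also higher in FBS and 408 (11.1%) were lower there. Of the 3225 that were lower, 1514 (46.9%) were lower and 275 (8.53%) higher in FBS. The difference of the 2 genotype differences, tested as an interaction, passed for 24.6% of all genes, and for 1524 of the higher (41.5%) and 1231 of the lower genes (38.2%), which is 2755 in all. That count was 1647 without labelled cKO atRA+PKCi library 1 and 1656 without library 2. This test takes the 8 libraries as independent, although each mouse gave 1 library in each medium. With the 4 mice as a term, an alternative chosen after seeing the data, the interaction passed for 22.6% of all genes and for 2539 of the called genes, 2456 of them among the 2755. Of the 43 epidermal differentiation genes, 36 were higher in atRA+PKCi but 31 were lower in FBS (median -0.83), 25 of them were called in both of these directions, and the interaction passed for all 43, with or without the mice as a term. Desmosome genes were lower for 7 of 12 in FBS, and replication and mitosis genes, 20 of 28 lower in atRA+PKCi, were higher for 13 of 28 in FBS. Cytokine genes were higher for 11 of 19 and lower for 4 in FBS. The interaction passed for 13 of the 19, with 12 values positive, and 3 of the genes were higher in atRA+PKCi and lower in FBS. Interferon-stimulated and antigen presentation genes were higher for 13 of 23 and lower for 1 in FBS, and the interaction passed for 6.

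**Figure D5:**
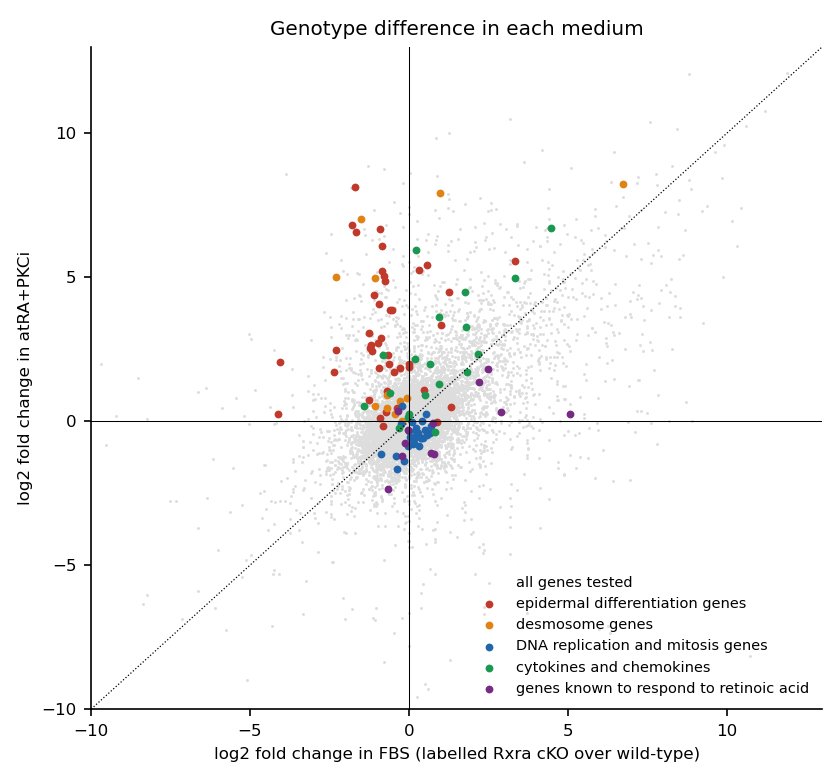
Genotype difference of each gene in FBS (x axis) and in atRA+PKCi (y axis), both as log2 fold change of labelled Rxra cKO over wild-type, with all 15965 tested genes in grey, 5 lists in colour and equal differences on the dotted line. Most epidermal differentiation genes (red) lie left of 0 in FBS and above 0 in atRA+PKCi, and most replication and mitosis genes (blue) lie below 0 in atRA+PKCi.

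The 6 genes called in opposite directions in the media with the smallest interaction p were Krt6b, Dsg1b, Gm94, Asprv1, Krt10 and Nat8l. Krt10 went from 6.09 and 6.53 CPM in the wild-type to 29.8 and 22.9 CPM in the labelled cKO libraries in atRA+PKCi, but from 153 and 127 to 8.6 and 8.36 CPM in FBS, a difference of differences of 6.11 log2 units (adjusted p = 1.74e-06). Krt6b went from 6358 and 6254 to 1698 and 2121 CPM in FBS (6.01), Dsg1b from 375 and 328 to 155 and 178 CPM (6.04) and Asprv1 from 898 and 899.9 to 379.9 and 455 CPM (5.49). Gm94 (0.77 and 0.824 to 30.5 and 25 CPM in atRA+PKCi, 219.8 and 241 to 70.6 and 84.2 CPM in FBS) and Nat8l (1.03 and 0.919 to 13.1 and 13.7 CPM, 284 and 227 to 36.8 and 43.4 CPM) followed the same course. In atRA+PKCi the wild-type libraries were thus the lowest of the 4 groups for Krt6b, Dsg1b, Gm94, Asprv1 and Nat8l, and for Krt10 as well. Krt15 ran the other way, with under 10 CPM in every FBS library of either genotype. Of the 20 genes that the study's text names for these cultures, 8 were higher (40.0%, against 23.0% of all genes), 4 were lower (20.0%, against 20.2%) and 8 were not called. Among the higher were Ly6a (138 and 137 to 284 and 299 CPM) and, by a small margin, Klf5 (0.24 ± 0.08, edgeR adjusted p = 0.0443). The higher genes of this list numbered 7 without TMM factors and also with limma on the log2 normalised counts. The call lost in those settings was that of Klf5. The lower were Sox9, Krt15, Cyp26b1 and the neuropeptide gene Calcb (29.2 and 26 to 7.36 and 8.31 CPM). Not called were Plekhb1, Tcf7l2, Fat1, Nfix, Nfib, Tbx1, Tcf7l1 and Ets2. That list was chosen on these samples and is not independent evidence.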

How the data were processed

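RNA-seq was done on hair follicle stem cell lines from 2 mice a genotype, each grown in both media. As the labels and methods state, the authors estimated transcript abundance with Salmon 1.4.0 against mm10 and brought transcripts to gene level by tximport. The authors deposited 1 column of estimated counts a library, without normalisation. The authors also deposited normalised counts from DESeq2, a signal scaled by library and transcript length, used here in 1 alternative only. Annotation and strandedness were not given in the sources used here.

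Estimated counts were rounded to whole numbers. Of 51906 genes, 15965 passed filterByExpr of edgeR 4.0.16 (R 4.3.3). TMM factors ran from 0.883 to 1.083. The 8 libraries were fitted with 1 mean per group by the quasi-likelihood test, so that the FBS libraries helped estimate the spread, with Benjamini-Hochberg adjustment over all genes tested and calls at an adjusted p under 0.05, two-sided. The fit was tested on simulated data. Alternatives used DESeq2 1.42.0 and limma 3.58.1. Total estimated counts were 25150300 to 35879800 a library. The standard errors (±) were derived from the log2 fold change and the F statistic of this fit, whose spread is shared across genes and all 8 libraries. With 2 mice a group, they cover the variation between these libraries only. The genotypes come from different mice, and same-numbered libraries of the genotypes deviated together with r of only 0.00515, so replicate numbers did not pair them. Within a genotype the titles number the libraries 1 and 2 in both media. Same-numbered libraries of a genotype in the 2 media deviated together with r of 0.112 in the wild-type and -0.00219 in the labelled cKO. A fit of the interaction with the 4 mice as a term was an alternative, which takes libraries of the same genotype and number as those of the same mouse.

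Named genes were those of the lists that show a list's range or have a known role, the 12 highest and 12 lowest called genes with a mean of at least 10 CPM, no overlap and no predicted-gene symbol, the genes of 1 genotype (at most 3 counts over its 4 libraries, and at least 1 CPM in each of the other 4), and the 6 genes called in opposite directions in the media with the smallest interaction p and a mean of at least 10 CPM over all 8. The members and lists were chosen with earlier results of these data known. Gene positions and promoter windows were from GRCm38 annotation and RefSeq (GRCm38.p6), with 15599 of the tested genes matched to 1 annotated gene. Values of some list members are not reported here, and they stay in the counts and medians of their lists. Single cell matrices of the same series were not used here. Genome-wide binding and accessibility samples were not analysed here.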

Additional observations from a re-analysis of the deposited data

Results flagged for a closer look

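A genotype difference that itself differs between the media, tested with the interaction term of the edgeR fit (adjusted p under 0.05 over all genes), was found for 130 of 205 genes named, where 24.6% of all genes tested passed. The values below are the log2 genotype difference (labelled Rxra cKO over wild-type) in atRA+PKCi minus that in FBS, so that a positive value means a higher relative level of the labelled cKO in atRA+PKCi. They were positive for 83 genes and negative for 47. Tested genes that the text names but that are not among the 205 include Klf5, Nfix, Nfib, Tbx1, Tcf7l1, Tcf7l2, Fat1, Plekhb1, Ets2 and Xist. Of the genes named, 6 were chosen for the smallest interaction p and 24 for the size of their difference in atRA+PKCi, so that nothing is read from the share of named genes. With 2 mice a genotype the part of the cell line in these differences was not tested. For genes with a group at 0 counts, such as Lce1a1 and Klk5, the value depends on the prior count of the fit and is no bound.

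Among epidermal differentiation genes the value was 9.83 for Lce1a1, 8.61 for Krt1, 8.26 for Krtdap, 7.58 for Klk5, 6.94 for Cnfn, 6.11 for Krt10, 6.07 for Sprr2d, 5.64 for Cdsn, 5.49 for Asprv1, 5.02 for Klk7, 4.94 for Flg, 4.32 for Casp14, 3.81 for Lor, 2.22 for Lgals7, 2.15 for Tgm1, 0.60 for Ly6a and -0.92 for Ivl. Among desmosome genes it was 8.52 for Dsg1a, 7.32 for Dsc1, 6.95 for Dsc2, 6.04 for Dsg1b, 1.6 for Dsp, 1.59 for Pkp1, 0.87 for Dsc3 and 0.68 for Pkp3. Epidermal transcription factors ran from positive to negative, with 4.0 for Hopx, 2.63 for Prdm1, 2.33 for Grhl1, 1.31 for Zfp750, 1.0 for Maf, 0.76 for Grhl3 and -1.18 for Ehf. Wound and stress genes gave 6.01 for Krt6b, 5.6 for Mmp3, 3.66 for Krt16, 2.38 for S100a8, 1.82 for Krt6a, 1.51 for Plau, 1.02 for Fos and -1.0 for Fosb. For basal keratin, laminin and integrin genes it came to 1.78 for Krt14, 1.19 for Itga2 and 0.84 for Krt5.

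In the list of retinoid receptors the value was 0.51 for Rxra. Values for retinoid uptake, binding and metabolism were 3.88 for Aldh1a3, 3.63 for Rdh12, 2.38 for Dhrs9, 2.1 for Crabp1, -0.80 for Crabp2, -1.69 for Cyp26b1 and -1.95 for Dhrs3. As for genes known to respond to retinoic acid, it was -0.64 for Tgm2 and -0.98 for Nrip1. For the list of RXR partner receptors they were 2.31 for Nr4a1, 0.91 for Thra and -1.93 for Pparg. In the list of lipid sensor target genes the value was 0.80 for Scd2 and 0.48 for Scd1. Values for hair follicle stem cell genes were 3.98 for Postn, -0.44 for Foxp1, -0.47 for Foxc1, -0.51 for Sox9, -1.74 for Sfrp1, -5.0 for Krt15 and -6.14 for Cd200. As for WNT pathway genes, it was 3.18 for Wnt10b, 1.87 for Axin2, -0.59 for Znrf3, -1.14 for Notum, -1.33 for Lgr4 and -3.8 for Lgr6.

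For the list of BMP and TGF-beta pathway genes they were 1.34 for Bmp2, 0.97 for Tgfbr2, 0.85 for Smad6, 0.55 for Fst, -0.55 for Id3, -1.1 for Id1 and -1.22 for Id2. In the list of Notch pathway genes the value was -0.49 for Jag2 and -0.52 for Rbpj. Values for EGF receptor family and ligands were 1.87 for Epgn, -0.36 for Dusp6 and -0.93 for Nrg1. As for DNA replication and mitosis genes, it was 0.74 for Ccne1, -0.93 for Top2a, -1.23 for Mki67 and -1.3 for Bub1. For the list of cyclin-dependent kinase inhibitors they were 0.97 for Cdkn2b, 0.91 for Cdkn2a, 0.83 for Cdkn1a, -0.47 for Cdkn1b and -1.05 for Cdkn1c. In the list of cytokines and chemokines the value was 5.72 for Ccl20, 2.72 for Tnf, 2.66 for Tslp, 2.24 for Ccl2, 1.61 for Csf2, 1.47 for Cxcl2 and 1.31 for Il33. Values for interferon-stimulated and antigen presentation genes were 0.88 for H2-K1, 0.73 for H2-D1 and -4.91 for Usp18.

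As for cholesterol synthesis genes, it was 1.12 for Hsd17b7 and 0.74 for Nsdhl. For the list of NRF2 target genes they were 0.44 for Tkt, -1.12 for Nqo1 and -1.71 for Gclc. In the list of protein kinase C isoforms the value was 0.71 for Prkcz. Values for Hox genes were 1.66 for Hoxb9, -1.16 for Hoxa5, -1.18 for Hoxc5 and -1.22 for Hoxa2.

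Outside the lists, the values were 6.69 for Gm94, 6.45 for Nat8l, 5.07 for Acta2, 4.83 for Acta1, 3.48 for Ctsc, 2.9 for Thtpa, 2.36 for Pgf and 1.81 for Prss27. Negative values among them were -0.69 for Hlf, -0.87 for Vim, -0.97 for Krt18, -1.85 for Enpp1, -1.91 for Ppbp, -4.8 for Krt13, -5.81 for Ngfr, -5.84 for Btn1a1, -6.7 for Calcb and -7.85 for Gm14133.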

How the results depend on the processing

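No called gene shared between the main test and any alternative changed its sign. DESeq2, no filter on low counts, no TMM factors, only the 4 atRA+PKCi libraries and limma on the authors' normalised counts (pseudocounts of 1 and 0.5) gave 3245 to 4123 higher and 2424 to 3865 lower genes, against 3670 and 3225. At a stricter threshold, with adjusted p under 0.01 and a change of over 1 log2 unit, there were 1406 higher and 675 lower genes, of which 656 differed between the media, as this setting keeps fewer genes by construction, and 67.6% of the called genes were higher against 53.2%. With 1 library left out, which leaves a group with a lone library assumed to vary like the others, higher genes numbered 2818 to 4008, lower genes 1970 to 3587 and genes that differed between the media 1647 to 3065. The lower and media counts moved by over 1.5 times when labelled cKO atRA+PKCi library 1 (2006 and 1647) or 2 (1970 and 1656) was left out, and the cause was not tested. With the replicate block there were 3661 higher and 3243 lower genes, 2715 of which differed between the media. The deviations of same-numbered libraries of the genotypes correlated with r of 0.00515. None of the 205 genes changed its call with that block. Outside the 205, the nuclear factor I family, which holds Nfix and Nfib, had 1 higher gene with the block, against 0 in the main test. Of the genes that the study's text names, 9 were higher with the block, against 8. A block within genotypes, with the 4 mice as a term, gave 2539 called genes that differed between the media, against 2755. Of 205 genes named, the interaction passed for 129 with the mice as a term and for 130 without, 125 of them shared, and Hlf, Notum, Pparg, Vim and Znrf3 lost that call. Among the 205, calls were gained by Pkp3 and Rxrb under some alternatives.

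Of 205 genes named, 198 were called, of which 13 lost their call when 1 library was left out, 51 under the stricter threshold and 9 under another tool, filter, scaling, fit or unit. The sign of 3 genes near no difference turned, to 0.00 for Dsg3 with only the 4 atRA+PKCi libraries. With 1 library left out, values ran from 0.00 to 0.06 for Dsg3, from -0.06 to 0.03 for Ivl and from -0.07 to 0.02 for Crabp2, and none of these 3 was called. With 2 libraries a group, genes of few counts, such as Rarres1, Aldh1a1 and Tnfsf13b, were the least firm.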

Other observations

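Genes outside the lists, chosen after their values were seen, included keratins of simple epithelia. Krt8 stood at 0.898 and 0.412 CPM in the wild-type and 31.1 and 34.6 CPM in the labelled cKO libraries in atRA+PKCi (5.64 ± 0.24, edgeR adjusted p = 5.36e-07), and its partner Krt18 at 40.4 and 37.3 against 143 and 153 CPM (1.93 ± 0.10). In FBS the labelled cKO libraries were also above the wild-type, at 14.4 and 16.5 against 0.073 and 0.116 CPM for Krt8 and 217 and 236 against 27.8 and 33.1 CPM for Krt18. Vim, the intermediate filament gene of mesenchymal cells, stood at 1.89 and 1.62 against 17.1 and 16.6 CPM (3.26 ± 0.17), and Acta2, smooth muscle actin, at 0.192 and 0.095 against 14.8 and 15.2 CPM (6.66 ± 0.26). The summed muscle markers moved with Acta2, at 1.2 to 1.6 CPM in the wild-type and 9.12 to 9.16 CPM in the labelled cKO libraries. Of these 4 markers, 2 could be tested and 1 was higher, the skeletal actin gene Acta1 (0.0321 and 0.0634 to 8.28 and 8.2 CPM), and Myh11 was at 0 throughout. The summed fibroblast markers were 8.18 to 11 CPM in the wild-type and 5.44 to 6.55 CPM in the labelled cKO libraries, with 1 higher and 1 lower of 6 tested and Lum at 0. The part of such cells in these levels was not tested. The invariant chain gene Cd74 stood at 0.192 and 0.222 against 1.75 and 1.56 CPM (2.98 ± 0.43). Of 29 hair shaft and inner root sheath genes, 15 were tested, and 6 were higher and 3 lower, of which the lower numbered 1 without labelled cKO atRA+PKCi library 1.

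The X inactivation transcript Xist was present in the libraries of all 4 mice in atRA+PKCi, at 963 and 1266 CPM in the wild-type and 448 and 428 CPM in the labelled cKO libraries (-1.35 ± 0.14). In FBS it was called higher in the labelled cKO libraries (log2 fold change 0.41), and the interaction passed.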
